A study of Mus musculus with 2 samples.

Results

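Id1-high WT cells are the E14 mouse embryonic stem cells (mESCs) of the WT library with at least 6 *Id1* UMIs per 10000 UMIs of the cell. A unique molecular identifier (UMI) marks 1 captured mRNA molecule, so a UMI count is a count of molecules. The members were chosen by this *Id1* value among the 2193 WT barcodes with at least 1000 detected genes, at most 5% mitochondrial UMIs and at least 10000 UMIs. They number 330, or 15.0% of these cells (exact binomial 95% interval 13.6 to 16.6%), and they are compared with the 780 WT cells below 1 *Id1* UMI per 10000 (35.6%), called Id1-low cells. The other 1083 WT cells lie between these limits.

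The study made 2 droplet-based libraries with the Chromium 3′ v3 chemistry and a target of 3000 cells each, 1 from parental E14 cells (WT) and 1 from *Smad1/5* double knockout E14 cells (S1/5 dKO) produced with CRISPR-Cas9. Both were grown without feeders on gelatin in medium with 15% FBS and 1000 U/ml LIF, and received no other treatment. The same limits left 2843 cells in the library labelled S1/5 dKO, so the series holds 5036 cells. No eligible barcode was shared between the libraries (0 in each).

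The targeted genes were measured first in both libraries. Over all eligible cells *Smad1* had 13.4 UMIs per 10⁶ UMIs (CPM) among WT cells and 9.18 CPM in the library labelled S1/5 dKO, and *Smad5* had 6.07 and 9.11 CPM. *Smad5* mRNA was thus higher under the knockout label. Counts from the 3′ end do not show the edit, whose position is not given in the sources used here, so the name "library labelled S1/5 dKO" is used throughout. Which of the knockout lines was sequenced is not given in the sources used here.

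ID proteins are helix-loop-helix proteins without a DNA-binding region. They pair with E proteins, a class of transcription factors, and keep them from DNA. Their genes are well-known direct targets of BMP signalling through SMAD1/5, and in mESCs grown with serum and LIF they are known for holding back differentiation.

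The Id1-high cells did not stand apart in median depth. They had 13957113 UMIs in all, with a median of 38146 UMIs per cell (range 11643 to 137742), and the Id1-low cells had 32474665 UMIs with a median of 38601 (range 11032 to 176741). The median number of detected genes was 5224.5 and 5254.5, and the median mitochondrial share 1.72% and 1.70%. Possible doublets, taken as cells whose UMIs exceeded 2 times the library median, made up a larger share of the Id1-high cells (20 of 330) than of the Id1-low cells (29 of 780). They were kept in the classes, and no doublet caller was used.

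*Id1* itself (ENSMUSG00000042745, chromosome 2 of GRCm38, 152736251 to 152737410) chose the cells, and its values are a description. The members had a median of 9.74 *Id1* UMIs per 10000 (range 6.00009 to 54.9), from 12 to 210 *Id1* UMIs per cell. They held 52.6% of the *Id1* UMIs of the eligible WT cells and 14.6% of all their UMIs. The limit of 6 cuts a continuous distribution. The cells nearest to it had 6.00009 just inside and 5.99 just outside, with 54 members from 6 to 7 and 89 cells from 5 to 6. The Id1-low cells had a median of 0.394, and 206 of them had no *Id1* UMI. The class is thus a range of *Id1* levels.

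**Figure D1:**
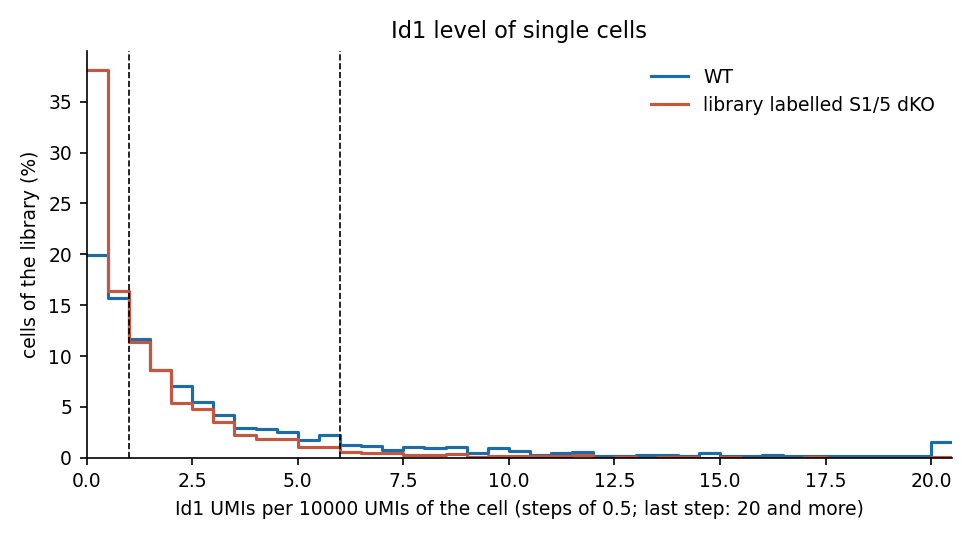
Share of the eligible cells of each library (%) by *Id1* UMIs per 10000 UMIs, in steps of 0.5, with dashed lines at the limits of 1 and 6. The values run without a gap through the limit of 6, and the WT median is 1.64 against 0.872 in the library labelled S1/5 dKO.

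The other *Id* genes, which the rule did not use, were higher in the Id1-high cells. *Id2* (ENSMUSG00000020644, chromosome 12, 25093799 to 25097140) had 156 CPM in the Id1-high cells (2183 UMIs, exact Poisson 95% interval 149.9 to 163 CPM) and 28.6 CPM in the Id1-low cells (928 UMIs, 26.8 to 30.5 CPM). Its log2 ratio, Id1-high over Id1-low, was 2.45 (exact 95% interval 2.34 to 2.56). *Id3* (ENSMUSG00000007872, chromosome 4, 136143497 to 136145755) had 269 CPM (3750 UMIs, 260.1 to 277 CPM) and 61.0 CPM (1981 UMIs, 58.3 to 63.7 CPM), and its log2 ratio was 2.14 (2.06 to 2.22). The 2 intervals of each gene lie far apart, so the markers of the label were raised together. *Id4*, the remaining member of the family, was scarce, with 42 UMIs (3.01 CPM) and 49 UMIs (1.51 CPM). Intervals here and below cover counting error only. Both classes come from 1 library, cells are not replicates of a condition, and no test was possible.

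Part of the promoter of *Id2* is shown because *Id2* had the highest log2 ratio of the tested genes. RefSeq (GRCm38.p6) places the start site of *Id2* at position 25096092 on the minus strand of chromosome 12. The 89 bases from chr12:25096254-25096342, read on the minus strand, lie before this start site and, in the GENCODE annotation, in an intron of a longer *Id2* transcript, outside any exon. The capitals mark GGCGCC, a GC-rich sequence known as a binding motif of SMAD1/5, which begins 231 bases before the start site.
Id2: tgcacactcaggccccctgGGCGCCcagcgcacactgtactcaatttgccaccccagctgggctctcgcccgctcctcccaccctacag
The promoter windows compared hold 250 bases before to 50 after a start site, and each motif was searched on both strands. GGCGCC was in the windows of *Id2* but not of *Id3*, and in 3898 of 32851 windows in all (11.9%). GTCTAGAC, a motif of SMAD3 and SMAD4, was in neither window and in 70 of all windows (0.213%). A match only describes the letters of a window.

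After thinning every cell to 10000 UMIs, *Id2* was detected in 64.2% of the Id1-high cells (exact binomial 95% interval 58.8 to 69.4%) and in 23.3% of the Id1-low cells (20.4 to 26.5%). The unthinned shares were 89.4% and 54.1%. *Id3* was detected in 78.8% (74.0 to 83.1%) and 34.7% (31.4 to 38.2%) of the thinned cells, and in 92.1% and 67.2% of the unthinned cells. All eligible cells entered, since none was shallower than 10000 UMIs. No cell type without these genes was at hand to give a background share. Barcodes with 10 to 100 UMIs, taken to hold free RNA and no cell, carried 24.4 UMIs on average, of which 0.000939 were *Id2* and 0.00243 were *Id3*. The Id1-low cells, which are far deeper than these barcodes, had a mean of 1.19 *Id2* and 2.54 *Id3* UMIs. Counts at such different depths do not give a background share. In CPM the free RNA held 38.5 of *Id2* and 99.8 of *Id3*, above the 28.6 and 61.0 of the Id1-low cells. The part of the UMIs of a cell that came from free RNA was not tested.

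Within the Id1-high cells the other *Id* genes varied widely. *Id2* ranged from 0 to 8.72 UMIs per 10000 with a median of 1.22, and *Id3* from 0 to 18.4 with a median of 2.08. Of the 330 thinned cells, 181 (54.8%) had a UMI of both genes, against 58 (7.44%) of the 780 Id1-low cells. In 39 Id1-high cells (11.8%, 8.54 to 15.8%) neither gene was detected. Those 39 cells had a median *Id1* value of 8.18, and the 181 cells with both genes had 12.1, at a median depth of 38242 and 36919 UMIs. Across the 330 thinned Id1-high cells, Pearson's r between log counts of *Id2* and *Id3* was 0.28 and Spearman's rho 0.27. Among the 780 Id1-low cells the values were −0.01 and −0.02. These describe cells of 1 library at equal depth.

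Levels were then followed over 6 bins of *Id1*. *Id2* had 28.6 CPM below 1 *Id1* UMI per 10000, 38.4 CPM from 1 to 2, 49.8 CPM from 2 to 4, 63.3 CPM from 4 to 6, 103 CPM from 6 to 10 and 222 CPM at 10 and more. *Id3* went from 61.0 CPM over 72.6, 82.7, 112 and 169 CPM to 392 CPM in the same order. Every bin was above the one before it for both genes. The Id1-high cells with 10 and more *Id1* UMIs (159 cells) and those with 6 to 10 (171 cells) thus differed in *Id2* and *Id3* beyond their counting intervals.

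*Skil* encodes SnoN, a repressor that holds back SMAD-dependent transcription. It had 28.9 CPM in the Id1-high cells (404 UMIs) and 11.5 CPM in the Id1-low cells (375 UMIs), a log2 ratio of 1.33 (1.12 to 1.53), and went from 11.5 CPM in the lowest to 36.7 CPM in the highest bin. It was detected in 23.9% (19.4 to 28.9%) and 11.0% (8.91 to 13.4%) of the thinned cells, and in 57.0% and 32.7% of the unthinned cells. *Sp5*, a transcription factor and well-known Wnt target, had 10.2 CPM (142 UMIs) and 3.29 CPM (107 UMIs), a log2 ratio of 1.63 (1.25 to 2.00). *Sp5* was detected in few of the thinned cells, 8.18% (5.46 to 11.7%) and 2.56% (1.57 to 3.93%), and in 20.6% and 7.82% of the unthinned cells.

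**Figure D2:**
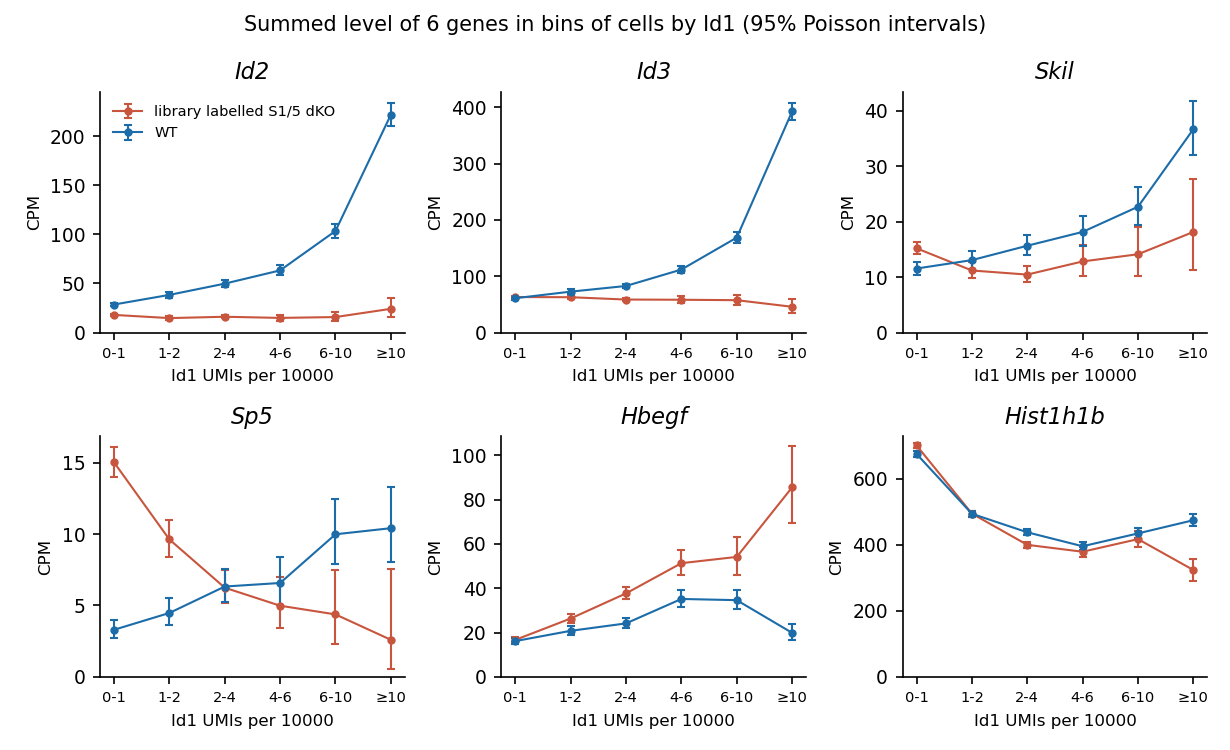
Summed level (CPM) of 6 genes in 6 bins of cells by *Id1* UMIs per 10000, for WT (blue) and for the library labelled S1/5 dKO (red), with exact 95% Poisson intervals. In WT *Id2* and *Id3* reach 222 and 392 CPM in the highest bin, while in the library labelled S1/5 dKO they have 24.2 and 45.8 CPM there.

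Most genes hardly differed between the classes. Of 8455 genes with at least 200 UMIs over both classes, *Id1* left out, 80 were at least 1.5-fold higher in the Id1-high cells (0.946%) and 16 at least 1.5-fold lower (0.189%). The median log2 ratio was 0.02, and 98.9% of the genes were within 1.5-fold. Single cells weigh on some of these. Without the cell of each class with the most UMIs of a gene, 65 of the 80 and 13 of the 16 genes were still called, with 8385 genes still at 200 UMIs or more, so a gene could also be lost by the minimum. An extreme case, chosen after its values were seen, is *Gm21761*, with 0 UMIs in the Id1-high cells and 250 in the Id1-low cells, of which 240 were in 1 cell, and without that cell it fell under the minimum.

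Besides the *Id* genes and *Skil*, the highest ratios among genes with at least 500 UMIs belonged to genes of varied roles. *Perp*, a membrane protein of desmosomes and a p53 target, had 59.6 and 31.9 CPM in Id1-high and Id1-low cells, a log2 ratio of 0.90 (0.77 to 1.03). *Dusp9*, a phosphatase that inactivates MAP kinases, had 59.0 and 32.6 CPM and a ratio of 0.86 (0.72 to 0.99). *Sfn*, a 14-3-3 protein of epithelia, had 75.4 and 42.8 CPM and a ratio of 0.82 (0.70 to 0.93). *Hbegf*, a ligand of the EGF receptor, had 28.0 and 16.1 CPM and a ratio of 0.80 (0.60 to 0.99). The same group holds *R3hdml* (1.05), *Napsa*, an aspartic protease (0.98), and *2310043M15Rik* (0.86). Not all of them followed *Id1* through its whole range. *Hbegf* fell back from 34.6 CPM (30.6 to 39.0) in cells with 6 to 10 *Id1* UMIs per 10000 to 19.9 CPM (16.5 to 23.7) in those with 10 and more, whereas *Dusp9* had 55.1 CPM (49.99 to 60.6) and 63.9 CPM (57.8 to 70.5).

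Of the 10 lowest ratios, again of genes with 500 UMIs or more, 4 belonged to histone genes (*Hist1h2ae*, *Hist1h1b*, *Hist1h4h* and *Hist1h3c*) and the other 6 to genes of varied roles. *Lefty2*, a secreted inhibitor of NODAL, had 9.39 CPM in the Id1-high cells (131 UMIs) and 15.8 CPM in the Id1-low cells (513 UMIs), a log2 ratio of −0.75 (−1.04 to −0.47). *Inhbb*, a subunit of activin B, had a ratio of −0.61 (−0.87 to −0.35), which was under 1.5-fold in 7 of 13 alternatives, among them −0.28 with Id1-high at 4 or more. *Lefty2* differed among the members too, with 12.7 CPM (10.3 to 15.5) at 6 to 10 and 5.29 CPM (3.64 to 7.42) at 10 and more *Id1* UMIs per 10000. *Dnmt3a*, which sets new DNA methylation, had 14.9 and 22.5 CPM and a ratio of −0.59 (−0.82 to −0.37). *Khdc3*, an RNA-binding protein of oocytes and early embryos, had a ratio of −0.63 (−0.74 to −0.51) and *Vegfc*, a growth factor of lymphatic vessels, −0.56 (−0.73 to −0.39). *Rhox5*, an X-linked homeobox gene, had the lowest ratio of the group, −0.79 (−1.05 to −0.54), but only 25 Id1-high cells had a UMI of it and 1 cell held 74 of its 165 UMIs. Without the top cell of each class its ratio was −1.50.

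**Figure D3:**
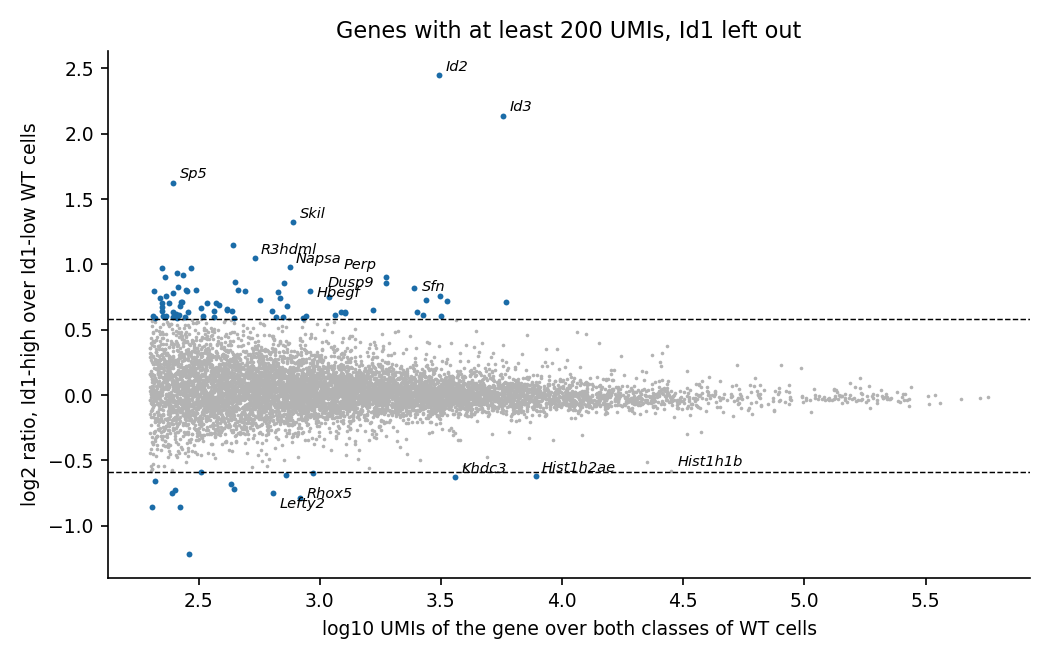
Log2 ratio, Id1-high over Id1-low WT cells, against log10 of the UMIs of each gene over both classes, for genes with at least 200 UMIs other than *Id1* and *Gm21761*, which has no finite ratio. Blue points are past 1.5-fold (dashed lines), and *Id2* and *Id3* stand alone above a log2 ratio of 2.

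Components of the BMP pathway were measured as well. Of 6 BMP ligands 2 had enough UMIs, *Gdf3* with a log2 ratio of 0.01 (−0.05 to 0.06) and *Bmp4* with 0.17 (0.04 to 0.30). The level of *Bmp4* turned within the members, with 62.5 CPM (57.0 to 68.3) at 6 to 10 and 39.4 CPM (34.6 to 44.6) at 10 and more *Id1* UMIs per 10000, against 46.2 CPM in the Id1-low cells. Among 6 receptors the tested ones were *Bmpr1a* with 0.17 (−0.09 to 0.42) and *Acvr2b* with −0.09 (−0.32 to 0.13). The signal transducers *Smad1*, *Smad5* and *Smad4* had ratios of 0.22 (−0.03 to 0.47), −0.14 (−0.54 to 0.24) and 0.11 (−0.05 to 0.27). Of the other 12 BMP feedback and target genes, 4 were tested, with a median of −0.01. *Smad7*, an inhibitory SMAD, was slightly lower, at 66.3 against 79.0 CPM, a ratio of −0.25 (−0.36 to −0.14). *Bambi*, a decoy receptor, had 0.18 (−0.06 to 0.42). The E proteins that ID proteins bind had ratios of 0.23 (*Tcf3*), −0.16 (*Tcf4*) and −0.05 (*Tcf12*).

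Of the pluripotency genes, *Pou5f1*, the gene of OCT4, had 1308 and 1289 CPM, a log2 ratio of 0.02 (−0.00 to 0.05), and was detected in 329 of the 330 Id1-high cells. The 4 core pluripotency genes had a median of 0.04 (highest *Lin28a* with 0.39) and the 11 tested genes of naive pluripotency a median of −0.12. None was past 1.5-fold, as was the case for 98.9% of all tested genes. *Zfp42*, a marker of naive cells, had −0.12 (−0.16 to −0.09), *Nanog* −0.14 (−0.22 to −0.06), *Nr0b1* 0.23 (0.16 to 0.29) and *Klf2* 0.30 (0.26 to 0.35). Genes of formative and primed cells had a median of −0.16 over 7 genes, with *Dnmt3a* the 1 gene at least 1.5-fold lower (0.189% of all tested genes were), and *Utf1* had −0.28 (−0.31 to −0.25). The LIF and STAT3 pathway had 9 tested genes with a median of 0.19, none past 1.5-fold.

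Marker lists of other cell types were measured as sums. The summed level of 11 mesendoderm genes was 4.37 CPM in the Id1-high and 3.82 CPM in the Id1-low cells, and that of 7 fibroblast genes 1.07 and 0.708 CPM, with *Col3a1*, *Dcn*, *Lum* and *Postn* at 0 in the Id1-high cells. The 8 genes of 2-cell-like cells had 0.143 CPM (2 UMIs, both of *Usp17lc*) and 1.23 CPM (40 UMIs), and the other 7 were at 0 in the Id1-high cells. The 15 primitive endoderm genes summed to 236 and 211 CPM, most of it *Sparc*, the 10 trophoblast genes to 35.5 and 30.2 CPM, most abundant *Tfap2c*, and the 9 germ cell genes to 78.6 and 72.7 CPM, most abundant *Dnd1*. *Tfap2c*, which the last 2 lists share, had a ratio of 0.65 (0.36 to 0.93). The 10 neural genes summed to 836 and 709 CPM, most of it *Stmn2*. *Pax6*, a regulator of the neural lineage, had 0.74 (0.34 to 1.14) on 92 UMIs, and was under 1.5-fold in 4 of 13 alternatives. The medians were 0.22 over 5 tested primitive endoderm genes, 0.24 over 3 of trophoblast, −0.02 over 5 of germ cells and −0.04 over 8 neural genes.

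Among signalling readouts, immediate early genes lay to the higher side. All 10 tested genes had ratios above 0, with a median of 0.44 against 0.02 for all genes, and 2 were past 1.5-fold, against 0.946% of all tested genes. These were *Junb* with 0.63 (0.52 to 0.75) and *Jun* with 0.97 (0.63 to 1.31), both subunits of AP-1. The 8 tested SRF and YAP target genes had a median of 0.36, and 3 were at least 1.5-fold higher, against 0.946% of all tested genes. These were *Ctgf* at 0.79 (0.56 to 1.01), *Cyr61* at 0.60 (0.37 to 0.83, and under 1.5-fold in 7 of 13 alternatives) and *Tagln*, an actin-binding protein, at 0.59 (0.39 to 0.79). Some ratios had intervals that did not overlap between cells at or below and cells above the median of the summed G2/M genes. For *Tagln* they were 1.72 (1.41 to 2.04) and −0.31 (−0.60 to −0.03), for *Hbegf* 0.28 (−0.04 to 0.59) and 1.12 (0.87 to 1.37). For *2310043M15Rik* they were 0.53 (0.23 to 0.84) and 1.27 (0.95 to 1.60), and for *Cdkn1c* 1.01 (0.87 to 1.15) and 0.43 (0.28 to 0.57). *Id3* had 2.30 (2.18 to 2.41) and 1.99 (1.88 to 2.10). The intervals of *Sp5* overlapped, with 0.99 (0.36 to 1.61) and 1.98 (1.49 to 2.48). Only named genes were compared in this way, and the genes given are picked examples. The share of all tested genes with intervals that did not overlap was not counted. A gap of this kind is thus not shown to be particular to these genes. The FGF and ERK response was not shifted as a list, with a median of −0.07 over 8 genes, although *Spry4*, a feedback inhibitor of ERK, had 0.61 (0.44 to 0.78). The 4 tested Wnt targets had a median of 0.27 and included, besides *Sp5*, *Ccnd1* with 0.16 (0.09 to 0.23) and *Notum* with −0.32 (−0.56 to −0.08), and the NODAL list had a median of −0.05 over 7 genes.

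Of 67 histone genes 21 were tested, with a median log2 ratio of −0.50 against 0.02 for all genes. Of the 21 genes, 3 were at least 1.5-fold lower (*Hist1h2ae*, *Hist2h2ac* and *Hist2h2bb*), against 0.189% of all tested genes, and 3 were above 0, up to 0.55. *Hist1h1b*, a linker histone, had 452 CPM in the Id1-high cells and 675 CPM in the Id1-low cells, a ratio of −0.58 (−0.62 to −0.54). *Hist1h2ae* had 122 and 187 CPM, a ratio of −0.62 (−0.70 to −0.54). *Hist1h4h* and *Hist1h3c* had −0.55 (−0.85 to −0.25) and −0.54 (−0.83 to −0.27). Over the bins the summed histone level was 1994 CPM below 1 *Id1* UMI per 10000, 1527 CPM from 1 to 2, and 1370.4, 1238, 1373 and 1457 CPM from there on, so the lowest bin stood above the other 5. Against WT cells without an *Id1* UMI the median ratio was −0.80, and against all other eligible WT cells it was −0.21. The 16 genes of G1/S and replication had a median of 0.01 and the 16 G2/M genes one of 0.09. None of them was past 1.5-fold, as was the case for 98.9% of all tested genes.

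Several lists described general state. The 13 mitochondrially encoded genes had a median of 0.01, the 79 tested ribosomal protein genes −0.02, the 7 tested housekeeping genes 0.00 and the 11 of glycolysis and hypoxia 0.05. ER chaperones had 0.15 over 10 genes and the ATF4 response −0.00 over 7. No gene of these lists was past 1.5-fold, as was the case for 98.9% of all tested genes. Of 12 p53 targets and CDK inhibitors, with a median of 0.10, *Cdkn1c* was the 1 gene at least 1.5-fold higher, against 0.946% of all tested genes. *Perp* is not in this list. *Cdkn1c* encodes an imprinted inhibitor of CDKs and had 99.5 and 60.5 CPM, a ratio of 0.72 (0.62 to 0.82). The 8 tested imprinted genes had a median of 0.23. Among them *Meg3*, a long non-coding RNA, had 175 and 106 CPM and a ratio of 0.72 (0.64 to 0.79), and *Mest*, with UMIs in only 42 Id1-high cells, had 0.80 (0.53 to 1.07). *Vim*, the most abundant gene of the list named epithelial, had 336 and 243 CPM and a ratio of 0.47 (0.41 to 0.52). Its place in the list does not show that it marks epithelial cells. The 6 tested genes of this list had a median of 0.17. Genes of DNA methylation and imprint protection had a median of −0.09 over 10 genes.

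**Figure D4:**
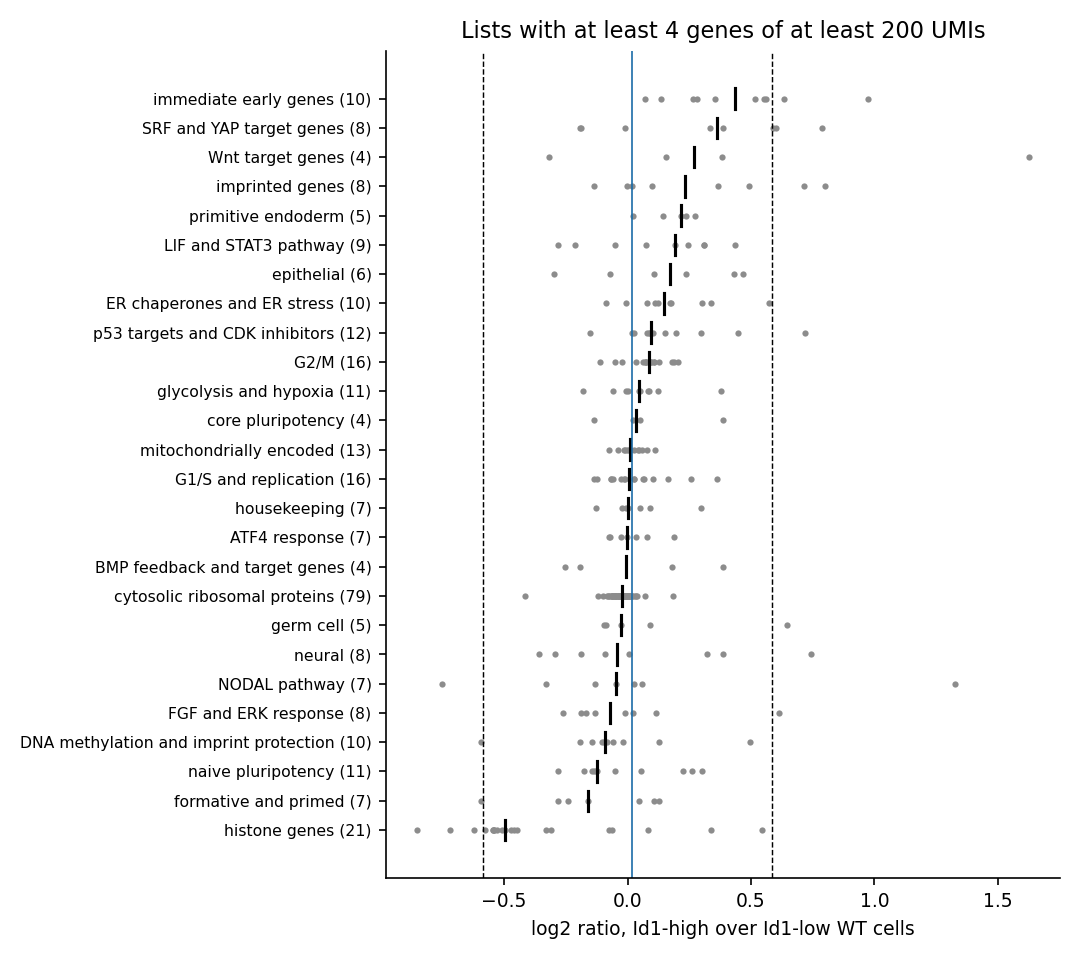
Log2 ratio, Id1-high over Id1-low WT cells, of the genes with at least 200 UMIs in each list that had at least 4 of them (grey points, number of genes in brackets) with the median of the list (black bar). The blue line is the median of all tested genes (0.02) and the dashed lines are 1.5-fold, and histone genes (−0.50) and immediate early genes (0.44) lie at the ends.

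The same rule was applied to the library labelled S1/5 dKO, whose cells had no part in choosing the WT classes. There 107 of 2843 cells (3.76%, 3.09 to 4.53%) had at least 6 *Id1* UMIs per 10000 and 1550 (54.5%, 52.7 to 56.4%) were below 1. The WT share of Id1-high cells was 15.0%. With 1 library per condition this difference has no replicate check.

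*Id2* and *Id3* were not higher in the Id1-high cells of that library. *Id2* had 18.2 CPM (75 UMIs, 14.3 to 22.8) in Id1-high and 18.0 CPM (1013 UMIs) in Id1-low cells, a log2 ratio of 0.01 (−0.34 to 0.35). *Id3* had 54.2 CPM (224 UMIs, 47.4 to 61.8) and 63.1 CPM (3552 UMIs), a ratio of −0.22 (−0.42 to −0.02). *Skil* had 0.00 (−0.39 to 0.37), on 63 UMIs. The WT intervals of all 3 genes lie wholly above these. Over all 2193 thinned WT cells, Pearson's r between log counts of *Id1* and *Id2* was 0.34 (Spearman's rho 0.27), and over the 2843 thinned cells of the other library it was 0.00 (0.00). For *Id1* and *Id3* the values were 0.39 (0.31) and −0.00 (0.02).

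Other genes went in the same or in opposite directions in the 2 libraries. *Hbegf* had 1.92 (1.71 to 2.12) in the library labelled S1/5 dKO, *Perp* 1.58 (1.41 to 1.74), *Sfn* 1.35 (1.20 to 1.49) and *Junb* 0.98 (0.84 to 1.12), each higher than in WT, while *Jun* had −0.67 (−1.50 to 0.05) on 16 UMIs in the Id1-high cells. *Lefty2* with 0.44 (0.16 to 0.70) and *Inhbb* with 0.55 (0.24 to 0.86) were above 0 there and below 0 in WT, and *Meg3* with −0.56 (−0.70 to −0.43) was below 0 there and above 0 in WT. *Hist1h2ae* had −0.77 (−0.91 to −0.62) and *Hist1h1b* −0.84 (−0.92 to −0.77), and the histone median was −0.50 over 26 genes. The SRF and YAP target genes had a median of −0.77 over 8 tested genes there, against 0.36 in WT. Of these 8 genes, 5 were at least 1.5-fold lower and 0 higher there, against 3.89% and 4.44% of all tested genes. Of the 80 genes higher in WT Id1-high cells, 25 were also at least 1.5-fold higher there, where 4.44% of 9022 genes were, and 13 were at least 1.5-fold lower, where 3.89% were. Of the 14 genes lower in WT, tested in both and with a finite ratio in each, 9 were also at least 1.5-fold lower there. Among them were *Rhox5* with −3.23 (−4.23 to −2.38) and *Dnmt3a* with −1.53 (−2.02 to −1.07). Of the 14 genes, 1 was at least 1.5-fold higher. *Gm21761*, left out of this count for lack of a finite ratio, had 0 UMIs in the Id1-high and 858 in the Id1-low cells there. The Id1-high class of that library holds 4130772 UMIs, so its ratios carry more counting error. Across the 8434 genes tested in both libraries, Pearson's r between the log2 ratios was 0.12 and Spearman's rho 0.13, with *Id1* left out. Genes are not independent replicates, and no difference between the libraries was tested.

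**Figure D5:**
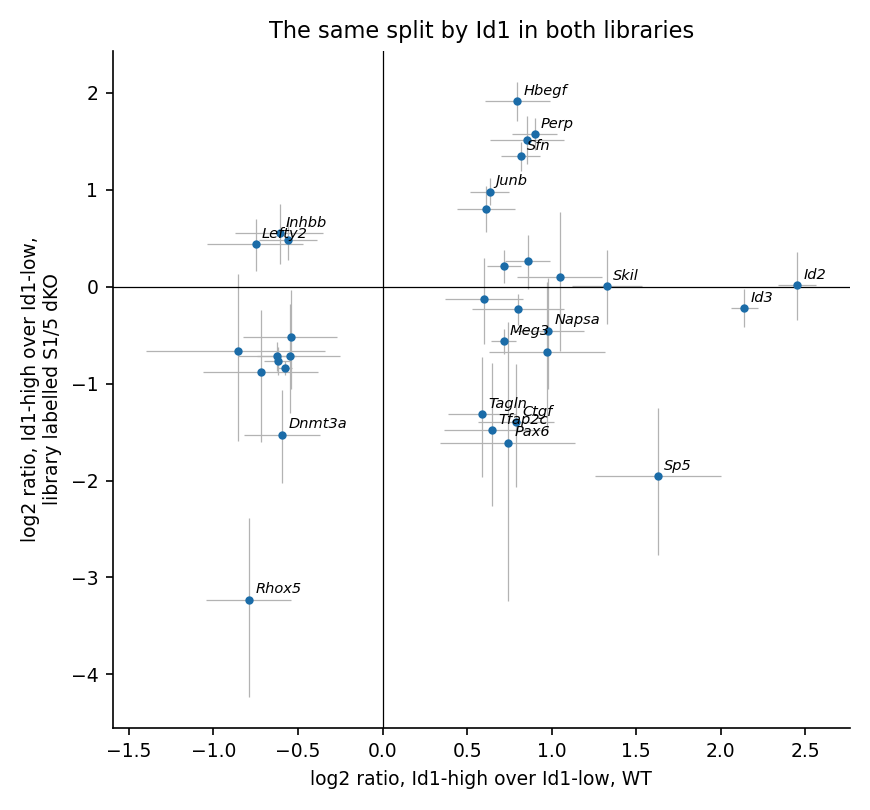
Log2 ratio, Id1-high over Id1-low cells, of WT (horizontal axis) against that of the library labelled S1/5 dKO (vertical axis) for the genes of highest and lowest ratio and the list members past 1.5-fold in WT, with exact 95% intervals. *Id2* and *Id3* lie near 0 on the vertical axis, *Hbegf*, *Perp* and *Sfn* are high on both, and *Sp5* is 1.63 in WT and −1.96 in the other library.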

How the data were processed

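The deposited matrices hold raw counts of UMIs per gene and barcode, which per the labels the authors made with Cell Ranger 3.0.2 on mm10, for 31053 genes and all barcodes of the kit. The libraries had 100446187 (WT) and 113937221 UMIs, of which eligible cells held 95749252 and 108678040, with a median of 38987 and 34856 per cell. UMIs were summed over the cells of a class and divided by the class total. Log2 ratios have exact 95% binomial intervals conditional on the sum. At the minimum of 200 UMIs these are wide, for *Abca1* (209 UMIs) from 0.17 to 1.00. Genes were called at 1.5-fold. Gene positions come from GENCODE vM21 (GRCm38), in which 30934 of the 31053 gene IDs were found.

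Genes named singly are *Id1* to *Id4*, *Smad1*, *Smad5*, the 10 highest and the 10 lowest ratios where a gene had 500 UMIs or more, and, of each of 35 gene lists, the members past 1.5-fold and otherwise up to 4 members with the most UMIs. Outside this rule, the following were chosen after their values were seen: *Gm21761*, *Ptch1*, *Gli1*, *Hes1*, *Fgfbp1* and *Abca1*. Also outside it, *Col3a1*, *Dcn*, *Lum* and *Postn* were named because they had no UMI in the Id1-high cells. The members and lists were chosen with earlier results of these data known.

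Alternatives were other limits for *Id1*, other comparison cells, minimums and folds, thinning, depth and cell cycle classes, per-cell means, and TMM scaling with edgeR 4.0.16 (R 4.3.3). The procedure was tested on simulated data for the Id1-high against Id1-low comparison. All 200 changed genes among 8462 were called in the right direction, and 6 unchanged genes were called. Of the intervals, 94.9% held the true ratio. The simulated counts carried counting error only, with no variation between cells, so a share near 95% was built in. Changed genes differed by about 2-fold or more and were expected above 200 UMIs. The simulation thus does not show how calls near 1.5-fold, or genes held by single cells, behave. Python 3.11.15, numpy 2.4.6, scipy 1.17.1, pandas 2.3.3 and matplotlib 3.10.9 were used.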

Additional observations from a re-analysis of the deposited data

Results flagged for a closer look

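The list members and top genes named by rule held 28 genes past 1.5-fold in WT, *Id2* and *Id3* left out. Of these 28, 5 were past 1.5-fold in the opposite direction in the other library, with intervals that leave out 0 in both. Among all 80 genes higher in WT, 13 were lower by 1.5-fold or more in the other library, against 3.89% of its tested genes. Of 14 genes lower in WT, 1 was higher by that fold, against 4.44%. These wider counts set no condition on the intervals. The 5 reversals are thus not shown to be particular to named genes. With 1 library per condition the opposite directions were not tested. *Sp5* had a log2 ratio, Id1-high over Id1-low, of 1.63 (1.25 to 2.00) in WT and −1.96 (−2.77 to −1.25) in the library labelled S1/5 dKO, where it was on 16 UMIs in the Id1-high cells, a difference of 3.58. *Pax6* differed by 2.35, with −1.61 (−3.25 to −0.36) on 5 UMIs in that library. For *Ctgf* the difference was 2.19, with −1.40 (−2.06 to −0.80) there. *Tfap2c* differed by 2.13, with −1.48 (−2.27 to −0.79). *Tagln* differed by 1.90, with −1.31 (−1.96 to −0.73), and its WT ratio changed sign with the cell cycle class.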

How the results depend on the processing

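The ratios of *Id2* and *Id3* stayed above 1.5-fold under every alternative tried. *Id2* (2.45) was 2.05 with Id1-high at 4 or more, 2.96 at 10 or more, 1.96 against all other eligible WT cells and 2.05 with thinned cells. *Id3* (2.14) was 1.75, 2.69 and 1.84 under the first 3 of these, 2.25 in cells of 20000 to 60000 UMIs, 2.25 without cells over 2 times the median UMIs, 2.25 with per-cell means, and 2.30 and 1.99 in cells at or below and above the median of the G2/M genes.

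The counts depend more on the settings. The 80 higher and 16 lower genes became 345 and 161 with a minimum of 50 UMIs, 32 and 6 with 500 UMIs and 6 and 2 at 2-fold, settings that change how many genes are tested or called by construction. With thinned cells they were 27 and 6. Thinning before the rule left 4709 genes to test and also changed the classes, to 393 and 631 cells, and 15 of the 80 and 1 of the 16 genes were still called. In the classes of low and high G2/M the higher genes were 53 and 52. With Id1-high at 10 or more the lower genes were 56, and against all other cells 47; the cause was not tested. The share of higher genes among those called was 83.3%, and 68.2%, 62.7% and 59.8% with a minimum of 50, Id1-high at 10 or more and all other cells, and 72.6% and 72.2% in the G2/M classes. TMM or median scaling moved ratios by 0.02 and gave 71 or 70 higher and 19 lower genes. The setting without the top cell of each class, chosen after seeing the data, gave 65 and 18. Of 416 values for 32 other named genes 329 stayed within the counting interval of the reported ratio, 86 of the rest kept its sign, and 1 changed sign, *Tagln*, to −0.31 above the G2/M median. Of the 28 of these genes past 1.5-fold as reported, 6 stayed past it in all 13 alternatives (*Skil*, *Sp5*, *Napsa*, *Jun*, *Perp* and *Dusp9*) and 22 did not in at least 1. With thinned cells *R3hdml* was 0.46 (−0.14 to 1.04), *Tfap2c* 0.20 (−0.34 to 0.73) and *Pax6* 0.21 (−0.63 to 1.02). *Pax6* was also 0.37 (−0.20 to 0.97) against WT cells without an *Id1* UMI and 0.43 (−0.15 to 1.00) above the G2/M median. *Mest* was 0.32 (−0.10 to 0.72) with Id1-high at 10 or more. The cause of these moves was not tested.

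All values come from 1 library per condition, so neither cultures nor knockout lines can be compared. The classes are cut from a continuous *Id1* level, and *Id1* counts of single cells carry counting error. Genes below 200 UMIs, among them most BMP targets, were not called at this depth. No doublets were removed.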

Other observations

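The following 4 genes were chosen after their values were seen, and no list was tested for them. *Ptch1*, the receptor of Hedgehog ligands, had 15.0 CPM in the Id1-high cells and 8.68 CPM in the Id1-low cells, a log2 ratio of 0.79 (0.53 to 1.06). *Gli1*, a transcription factor of the pathway, had 9.53 and 5.45 CPM, a ratio of 0.81 (0.47 to 1.14). In the library labelled S1/5 dKO *Ptch1* had −2.41 (−3.37 to −1.60), on 12 UMIs in the Id1-high cells, and *Gli1* −0.44 (−1.13 to 0.18). *Hes1*, a repressor known as a Notch target, had 47.9 and 30.5 CPM in WT, a ratio of 0.65 (0.51 to 0.80), and 1.05 (0.85 to 1.23) in the other library. *Fgfbp1*, a carrier of FGFs, had 0.63 (0.47 to 0.79) in WT and −1.85 (−2.32 to −1.42) in the other library.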
